A study of Mus musculus with 6 samples.

Results

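The 9 genes described here encode proteins of the cytotoxic granule. They are the granzymes *Gzma*, *Gzmb*, *Gzmc*, *Gzmk* and *Gzmm*, the pore-forming perforin *Prf1*, the granule membrane protein *Nkg7*, the granule proteoglycan *Srgn* and the cysteine protease *Ctsw*. They were taken by symbol from 24223 genes, and all 9 were among the 13607 genes that passed the filter on low counts. RNA-Seq libraries were made from mouse Naive CD4+ T cells (Naive) and from Th17 and Th1 cells, with 2 libraries of each. According to the methods, CD4+CD44- cells were separated from pooled lymph nodes and spleens of C57BL/6 mice aged 1 to 2 months. All polarized cells were activated through CD3 and CD28 and were collected on the fifth day. Th1 cells were given IL-12, IL-2 and anti-IL-4. Th17 cells were given TGF-β, IL-6, IL-1β, IL-23, anti-IL-4 and anti-IFN-γ. For activation the methods give bound anti-CD3 with soluble anti-CD28, or beads, without saying which libraries had which. The paper calls the Naive cells non-activated, and no library comes from cells activated without polarization. In the comparisons with Naive, activation, culture and polarization therefore cannot be told apart. No deletion or transgene is named for any group, and the labels do not say which animals gave which library. The paper calls the 2 libraries of each cell type independent biological replicates. The p-values set each difference against the spread between these libraries, which was estimated from all libraries and all tested genes together.

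Killer lymphocytes store granzymes and perforin in secretory lysosomes bound to the proteoglycan serglycin. On contact with a target cell the granules fuse with the plasma membrane, perforin opens the way into the target, and the granzymes cleave proteins there. The machinery is best known in NK cells and CD8 T cells, and T-box and Runx factors are known regulators of its genes. Some CD4 helper cells also make granzymes.

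Expression is given as CPM, the usual depth-corrected unit, here the counts of a gene relative to the scaled total of its library. Between 17742158 and 69080017 reads were counted per library, and replicate 1 was the deeper library in each cell type. A gene was called where edgeR's quasi-likelihood test gave a p-value below 0.01 after Benjamini-Hochberg adjustment and the log2 fold change passed 1 in size, and SE stands for the standard error of that change. An exact two-sided permutation test of 2 libraries against 2 cannot give a p-value under 0.333, so each p-value given comes from the model fitted to all genes. *Cd4* had between 422 and 740.3 CPM in the 6 libraries, *Cd8a* between 0.149 and 1.38 CPM and *Cd8b1* between 5.43 and 11.2 CPM. *Il17a* had 526 and 691 CPM in the Th17 libraries and at most 0.541 CPM in the others, and *Il12rb2* had 338 and 281 CPM in the Th1 libraries and at most 11.1 CPM in the others.

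In Th1, 5 of the 9 genes were called higher than in Naive and 0 lower, namely *Gzma*, *Gzmb*, *Gzmc*, *Nkg7* and *Ctsw*. Of all genes tested, 7.45% were called in this comparison, 4.64% higher and 2.81% lower. In Th17 versus Naive, *Gzma*, *Gzmb* and *Gzmc* were called higher and *Nkg7* lower, against 4.01% and 1.43% of all genes and 5.43% in either direction. In Th1 versus Th17, *Gzma*, *Nkg7* and *Ctsw* were called higher and 0 genes lower, against 2.70% and 2.83% of all genes and 5.53% in either direction. Counting only whether both libraries of one cell type lay beyond both of the other, 5 genes were above and 3 below Naive in Th17, where 32.4% and 33.1% of all genes were, 65.5% in either direction. In Th1, 7 were above and 1 below Naive, where 27.6% and 28.4% of all genes were, 56.0% in either direction. Between Th1 and Th17, 5 were higher and 1 lower in Th1, where 31.5% and 35.1% of all genes were, 66.6% in either direction. The median log2 fold change of the 9 genes was 2.04 in Th1 and 0.55 in Th17 versus Naive, and 0.93 in Th1 versus Th17. The medians over all genes tested were -0.02, -0.02 and -0.03. Both comparisons with Naive share the Naive libraries. With library size as the only scaling, 3 genes were called in Th1 versus Naive and 1 in Th1 versus Th17. The first comparison gave 3 genes without Naive replicate 2, the comparison of Th1 with Th17 gave 1 without Th17 replicate 1, without Th17 replicate 2 or without Th1 replicate 2, and that of Th17 with Naive gave 2 without Th17 replicate 1.

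**Figure D1:**
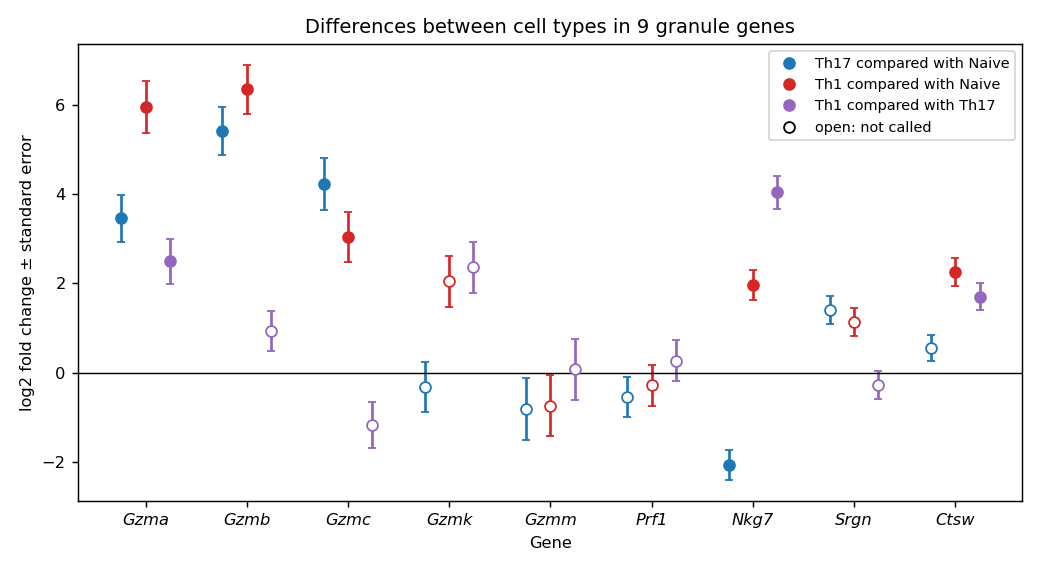
Log2 fold change of each of the 9 granule genes in the 3 comparisons, from edgeR's model of all 6 libraries, with bars for the standard error (SE). Filled points are called differences. *Gzmb* stands highest versus Naive, followed by *Gzma* in Th1 and by *Gzmc* in Th17, *Nkg7* lies below 0 in Th17 and above it in Th1, and the points of *Prf1* and *Gzmm* are all open.

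The window of 250 bases before the start site is shown for 4 genes, *Gzmb*, *Gzmc* and *Gzma* because their RNA rose in both polarized cell types, and *Prf1* because its RNA was not called in any comparison. The sequences are those of RefSeq on GRCm38.p6, read 5′ to 3′ on the strand of the gene, and positions are counted back from the start site, with -1 next to it. Capitals mark matches to the letters of 5 motifs. These are GGTGTG for T-box factors, TGTGGT for Runx factors, TGANTCA for AP-1 and TTCNNNGAA for STAT factors, each on both strands, and TATAAA on the strand of the gene only. The T-box and Runx letters can overlap, but no matches did so here.
Gzmb, chr14:56262335-56262584, minus strand: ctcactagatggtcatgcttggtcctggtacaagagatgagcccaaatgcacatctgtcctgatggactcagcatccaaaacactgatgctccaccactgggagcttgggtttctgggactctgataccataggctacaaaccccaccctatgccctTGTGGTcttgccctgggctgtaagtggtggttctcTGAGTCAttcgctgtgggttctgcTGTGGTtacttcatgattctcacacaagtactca
Gzmc, chr14:56234658-56234907, minus strand: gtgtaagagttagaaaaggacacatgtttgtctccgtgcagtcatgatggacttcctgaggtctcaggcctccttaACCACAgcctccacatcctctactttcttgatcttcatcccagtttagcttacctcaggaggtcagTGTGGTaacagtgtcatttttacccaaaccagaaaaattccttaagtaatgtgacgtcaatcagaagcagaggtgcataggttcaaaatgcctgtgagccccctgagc
Gzma, chr13:113100982-113101231, minus strand: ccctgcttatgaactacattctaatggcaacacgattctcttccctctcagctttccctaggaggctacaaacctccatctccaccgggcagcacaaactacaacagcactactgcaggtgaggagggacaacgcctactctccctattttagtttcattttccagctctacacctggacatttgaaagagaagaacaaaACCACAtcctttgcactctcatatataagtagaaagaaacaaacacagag
Prf1, chr10:61297586-61297835, plus strand: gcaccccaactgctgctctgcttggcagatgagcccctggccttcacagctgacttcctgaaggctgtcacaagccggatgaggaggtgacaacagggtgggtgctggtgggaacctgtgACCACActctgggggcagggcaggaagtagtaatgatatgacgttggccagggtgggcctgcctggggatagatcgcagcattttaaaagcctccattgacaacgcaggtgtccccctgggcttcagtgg

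The window of *Gzmb* held the Runx letters at -93 to -88 and at -34 to -29, with the AP-1 letters between them at -58 to -52. RefSeq start sites can differ from the gene coordinates given below, which are those of GENCODE. The *Gzmb* window begins at 56262335 and the GENCODE gene ends at 56262260, so from the GENCODE start these letters lie farther away. That of *Gzmc* held the Runx letters on both strands, at -174 to -169 and at -108 to -103. In *Gzma* they lay at -50 to -45 and in *Prf1* at -130 to -125, on the opposite strand in both. RefSeq gave 10 windows for 8 of the 9 genes. The Runx letters were in 7 of these 10 windows, those of *Gzmm*, *Nkg7* and *Srgn* included, and in 14.0% of 32851 windows of the same length before all genes. The T-box letters were in 3 of the 10 windows (*Gzmk*, *Gzmm* and *Nkg7*) and in 16.3% of all windows. In *Nkg7* they lay at -13 to -8 from the RefSeq start site. That window ends at 43437137, while *Nkg7* begins at 43437073 in GENCODE, so these letters lie inside the gene as GENCODE places it. The AP-1 letters were in 1 of the 10 windows and in 6.75% of all windows, the STAT letters in 2 (*Gzmm* and *Nkg7*) and in 7.02%, and the TATA letters in 1 (*Srgn*) and in 7.59%. These matches describe the letters of the windows and were not tested for binding.

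**Figure D2:**
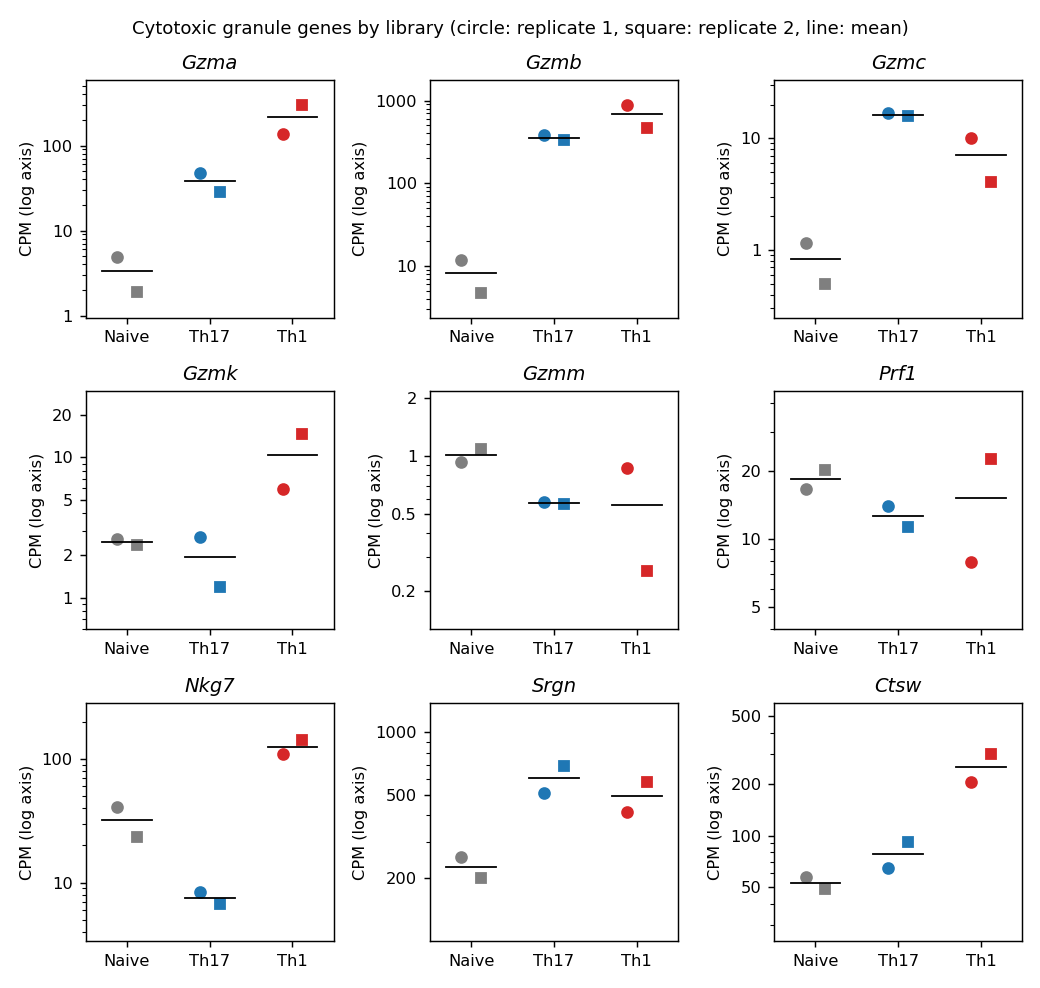
CPM of the 9 granule genes in each library, on a log axis that differs between panels. Circles are replicate 1, squares replicate 2 and lines the mean of 2 libraries. The Th1 replicates lie apart for *Gzma*, *Gzmb*, *Gzmc*, *Gzmk*, *Gzmm* and *Prf1*, with replicate 1 higher for *Gzmb*, *Gzmc* and *Gzmm* and replicate 2 higher for *Gzma*, *Gzmk* and *Prf1*.

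*Gzmb*, which encodes a protease that cleaves after aspartate and activates caspases, lies on chromosome 14 of GRCm38 from 56258838 to 56262260. It had 11.7 and 4.70 CPM in the Naive libraries, 379 and 333 CPM in Th17, and 893 and 463 CPM in Th1. All 4 polarized libraries were far above both Naive libraries, and both Th1 libraries were above both Th17 libraries. Means were 8.22 ± 4.98 CPM for Naive, 356 ± 32.9 for Th17 and 678 ± 304 for Th1 (SD, n = 2 each). Versus Naive, the log2 fold change was 5.41 in Th17 (SE 0.53, adjusted p = 2.5e-04) and 6.34 in Th1 (SE 0.55, adjusted p = 1.3e-04). Between Th1 and Th17 it was 0.93 (SE 0.44, adjusted p = 0.17), which was not called, and it was 0.37 without Th1 replicate 1. Whichever library was left out, the change versus Naive stayed between 4.92 and 6.24 in Th17 and between 5.84 and 7.17 in Th1, and was called each time.

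*Gzmc*, a rodent granzyme 24182 bp from *Gzmb* in the same cluster, lies on chromosome 14 from 56231441 to 56234656. It had 1.16 and 0.495 CPM in Naive, 16.8 and 15.8 CPM in Th17, and 10.2 and 4.05 CPM in Th1, from 10 to 1095 counts per library. In contrast to *Gzmb*, both Th17 libraries were above both Th1 libraries. Both differences from Naive were called, with log2 fold changes of 4.22 in Th17 (SE 0.58, adjusted p = 0.0016) and 3.04 in Th1 (SE 0.56, adjusted p = 0.0054). For Th1 versus Th17 it was -1.18 (SE 0.51, adjusted p = 0.14) and was not called. The call in Th1 versus Naive was lost without Naive replicate 2 (2.64), without Th17 replicate 1 or 2 (3.05 each) and without Th1 replicate 1 (2.25), and also with library size alone (2.83) and with only the 4 libraries compared in the model (3.06). Of the 50-base stretches of the *Gzmc* transcript, 4.14% also occur in transcripts of 3 other genes, *Gzme* foremost, so that a part of its reads may not be assignable to it, while the other 8 members shared 0%.

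The other granzymes of this cluster, *Gzmd*, *Gzme*, *Gzmf*, *Gzmg* and *Gzmn*, had too few counts to be tested. *Gzmd* had 40 and 4 counts in the Th17 libraries, 0 in both Naive libraries, and 0 and 1 in Th1. *Gzme* had 10 and 1 counts in Th17 and 0 in the other 4 libraries. *Gzmf* had at most 6 counts, *Gzmg* at most 1 and *Gzmn* 0 in every library. At 3 counts, taken as the limit of detection, a gene stands between 0.0440 and 0.190 CPM in these libraries. Of the 5 genes only *Gzmd* was above this limit in both libraries of a cell type, in Th17, and reads of near-identical members of the cluster may have been divided among them or dropped.

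*Gzma*, a protease that cleaves after basic residues and is known for a caspase-independent form of killing, lies on chromosome 13 from 113093825 to 113100981. It had 4.89 and 1.88 CPM in Naive, 48.1 and 28.6 CPM in Th17, and 136 and 297 CPM in Th1. The 3 cell types did not overlap, and in Th1 the order of the replicates was opposite to that of *Gzmb*, with replicate 2 above replicate 1. *Gzma* rose versus Naive by a log2 fold change of 3.45 in Th17 (SE 0.53, adjusted p = 0.0025) and 5.95 in Th1 (SE 0.59, adjusted p = 2.3e-04). The value for Th1 versus Th17 was 2.49 (SE 0.50, adjusted p = 0.0098), close to the threshold. This call was lost without Th17 replicate 1 (2.92), without Th17 replicate 2 (2.17) and without Th1 replicate 2 (1.82). It was also lost with library size alone (2.24), with at least 10 counts required in every library (2.40) and after thinning to the smallest library (2.40), and the call in Th17 versus Naive was lost without Th17 replicate 1 (3.03, adjusted p = 0.012).

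*Gzmk*, another protease of the tryptase type, lies 70627 bp from *Gzma* on chromosome 13, from 113171608 to 113225908. It had 2.60 and 2.38 CPM in Naive, 2.72 and 1.19 CPM in Th17, and 5.93 and 14.8 CPM in Th1. Both Th1 libraries were above the other 4, and again Th1 replicate 2 was the higher. Its log2 fold change in Th1 was 2.04 versus Naive (SE 0.57, adjusted p = 0.036) and 2.36 versus Th17 (SE 0.58, adjusted p = 0.024), neither of which was called by edgeR. DESeq2 called both, with adjusted p-values of 0.0043 and 0.00097, and without Th1 replicate 1 edgeR called the change versus Th17 (2.88). Th17 differed from Naive by a log2 fold change of -0.31 (SE 0.56).

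*Gzmm*, a granzyme best known in NK cells, lies on chromosome 10 from 79689020 to 79695261 and had the lowest mean CPM per kilobase of exon in each cell type, although its Naive libraries overlapped those of *Gzmc*. It had 0.939 and 1.09 CPM in Naive, 0.581 and 0.566 CPM in Th17, and 0.866 and 0.253 CPM in Th1, from 4 to 64 counts per library. Both Naive libraries were above the other 4, but no comparison was called, with log2 fold changes of -0.81 in Th17 (SE 0.69) and -0.74 in Th1 (SE 0.68) versus Naive.

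*Prf1*, on chromosome 10 from 61297833 to 61304680, encodes perforin, through which granzymes reach the inside of a target cell. It had 16.7 and 20.3 CPM in Naive, 14.0 and 11.3 CPM in Th17, and 7.95 and 22.6 CPM in Th1. The Th1 libraries lay on either side of all others. Both Th17 libraries lay below both Naive libraries, which held for 33.1% of all genes tested. Means were 18.5 ± 2.54 CPM for Naive, 12.6 ± 1.91 for Th17 and 15.3 ± 10.4 for Th1 (SD, n = 2 each). Log2 fold changes were -0.55 in Th17 (SE 0.46, adjusted p = 0.43) and -0.28 in Th1 (SE 0.46, adjusted p = 0.74) versus Naive, and 0.26 in Th1 versus Th17 (SE 0.46, adjusted p = 0.71). Without Th1 replicate 1 the change in Th1 versus Naive was 0.33, and without Th1 replicate 2 it was -1.21. So *Gzmb* was called in both comparisons with Naive and *Prf1* in neither, in the same libraries, and the difference between the genes was not tested.

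*Nkg7*, a membrane protein of the granule that takes part in its release, lies on chromosome 7 from 43437073 to 43438249. It had 40.6 and 23.3 CPM in Naive, 8.39 and 6.79 CPM in Th17, and 109 and 142 CPM in Th1. The 3 cell types did not overlap, with Th17 lowest and Th1 highest. *Nkg7* fell in Th17 and rose in Th1, with log2 fold changes of -2.07 in Th17 (SE 0.34, adjusted p = 0.0036) and 1.97 in Th1 (SE 0.33, adjusted p = 0.0035) versus Naive, and 4.04 in Th1 versus Th17 (SE 0.36, adjusted p = 2.3e-04). Of the 9 genes, *Nkg7* was the only one called in opposite directions in the comparisons with Naive, which held for 0.110% of all genes tested. The difference between Th1 and Th17 was called with each library left out, between 3.83 and 4.21. The call in Th17 versus Naive was lost without Naive replicate 1 (-1.61), Th17 replicate 1 (-2.24) or Th17 replicate 2 (-1.93), and that in Th1 was lost without Naive replicate 2 (1.62) or Th1 replicate 2 (1.76) and with library size alone (1.72).

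*Srgn*, on chromosome 10 from 62493833 to 62527451, encodes serglycin, the proteoglycan that holds granule proteins in many blood cells and not only in killer cells. It had 254 and 200.2 CPM in Naive, 512 and 693 CPM in Th17, and 417 and 576 CPM in Th1. All polarized libraries were above both Naive libraries, while Th17 and Th1 overlapped. The log2 fold change versus Naive was 1.41 in Th17 (SE 0.31, adjusted p = 0.017) and 1.13 in Th1 (SE 0.31, adjusted p = 0.035). Neither was called by edgeR, and DESeq2 called both, with adjusted p-values of 1.6e-04 and 0.0032. For Th1 versus Th17 the value was -0.28 (SE 0.31).

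*Ctsw*, on chromosome 19 from 5465043 to 5468507, encodes cathepsin W, a cysteine protease of NK cells and CD8 T cells. It had 57.6 and 48.4 CPM in Naive, 64.3 and 91.1 CPM in Th17, and 206 and 298 CPM in Th1. Both Th1 libraries were far above the other 4. *Ctsw* rose in Th1 with a log2 fold change of 2.25 versus Naive (SE 0.31, adjusted p = 0.0013) and 1.70 versus Th17 (SE 0.30, adjusted p = 0.0060), and it was 0.55 in Th17 versus Naive (SE 0.30, adjusted p = 0.22). The difference between Th1 and Th17 was not called without Th17 replicate 1 (1.47), Th17 replicate 2 (1.97) or Th1 replicate 2 (1.41), or with library size alone (1.48).

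To compare levels between genes, CPM was divided by the length of the exons in kilobases. In Naive, *Srgn* was highest with 130 ± 21.8 CPM per kilobase, followed by *Ctsw* with 42.7 ± 5.23 and *Nkg7* with 36.2 ± 13.9, whose libraries overlapped. *Prf1*, *Gzmb* and *Gzma* followed with 7.14 ± 0.984, 5.73 ± 3.47 and 3.36 ± 2.11 CPM per kilobase, and each overlapped its neighbour in this order. In Th17 no neighbours overlapped, and the order was *Srgn* (344 ± 73.0 CPM per kilobase), *Gzmb* (248 ± 22.9), *Ctsw* (62.6 ± 15.2), *Gzma* (38.1 ± 13.7), *Gzmc* (18.2 ± 0.768), *Nkg7* (8.61 ± 1.28), *Prf1* (4.88 ± 0.738), *Gzmk* (1.43 ± 0.796) and *Gzmm* (0.446 ± 0.00864). In Th1 *Gzmb* had the highest mean, 472 ± 212 CPM per kilobase, and *Srgn* (283 ± 64.0), *Gzma* (215 ± 113) and *Ctsw* (203 ± 52.5) followed, each overlapping the next. *Nkg7* followed with 142 ± 26.5 CPM per kilobase, and *Gzmc*, *Gzmk* and *Prf1* lay between 5.92 and 7.96. The ratio of *Gzmb* to *Prf1* per kilobase was 1.27 and 0.418 in the Naive libraries, 48.9 and 53.2 in Th17, and 202 and 36.8 in Th1.

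**Figure D3:**
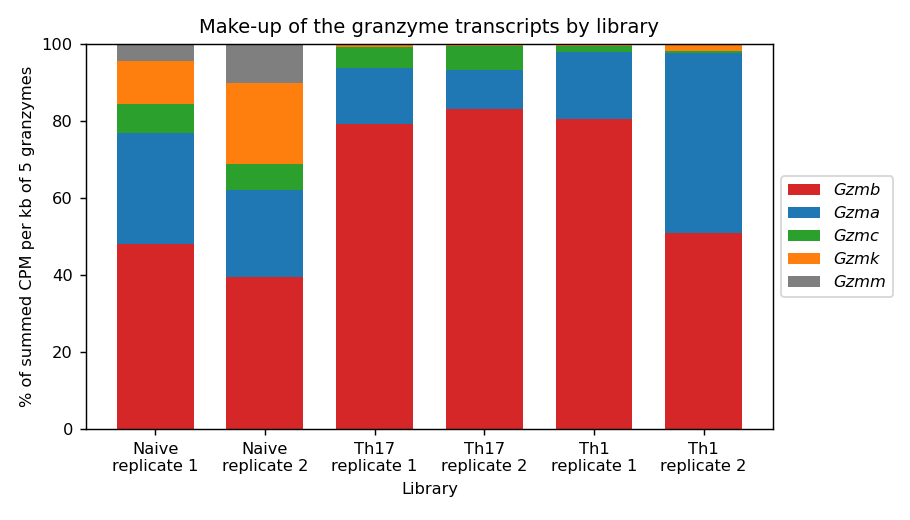
Share of each granzyme in the summed CPM per kilobase of *Gzma*, *Gzmb*, *Gzmc*, *Gzmk* and *Gzmm*, 1 bar per library. *Gzmb* makes up 79.3% and 83.0% in the Th17 libraries and 80.4% in Th1 replicate 1, but 50.9% in Th1 replicate 2, where *Gzma* makes up 46.6%.

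Within the 5 granzymes, *Gzmb* held 48.2% and 39.5% of the CPM per kilobase in the Naive libraries and *Gzma* 28.6% and 22.6%. *Gzmk* held 11.2% and 21% there, and at most 1.71% in each polarized library. *Gzmb* was the most abundant of the 5 in each of the 6 libraries. The Th1 replicates differed in make-up, with 17.5% *Gzma* in replicate 1 and 46.6% in replicate 2, and *Gzmc* held 5.63% and 6.32% in Th17 against 1.47% and 0.715% in Th1. Across the 6 libraries, Pearson's r of log2 CPM was 0.93 between *Gzma* and *Gzmb*, 0.91 between *Gzmb* and *Gzmc*, 0.87 between *Gzmk* and *Nkg7* and -0.54 between *Gzmb* and *Prf1*. These values describe 6 libraries in 3 groups and carry no p-value.

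The other genes of the pathway were read from 5 lists with 69 genes, of which 63 were tested. Of these, 12 were called higher and 7 lower in Th17 versus Naive, 10 and 6 in Th1 versus Naive, and 8 and 4 in Th1 versus Th17, where 5.43%, 7.45% and 5.53% of all genes tested were called. The called total of 19 in Th17 versus Naive was 8 without Th17 replicate 2, that of 16 in Th1 versus Naive was 10 without Naive replicate 1 or without either Th1 replicate, and that of 12 in Th1 versus Th17 was 7 without Th17 replicate 2. Genes that process granule proteins or inhibit them form a list of 14, all tested. In Th17 versus Naive, 4 of them were called higher and 1 lower, with a median log2 fold change of 1.53. In Th1 versus Naive 0 were called higher and 1 lower (median 0.30), and versus Th17 0 higher and 2 lower (median -0.74), where 5.43%, 7.45% and 5.53% of all genes were called with medians of -0.02, -0.02 and -0.03. *Ctsc*, the peptidase that activates granzymes, had 59.2 ± 0.626 CPM in Naive, 85.9 ± 16.7 in Th17 and 79.7 ± 4.51 in Th1, with no call. *Serpinb9*, the inhibitor of granzyme B, had 13.4 ± 0.578, 34.3 ± 6.32 and 27.1 ± 1.29 CPM in the same order, with adjusted p-values of 0.014 in Th17 and 0.040 in Th1 versus Naive, and was not called. *Serpinb1a*, an inhibitor of neutrophil proteases, rose in Th17 from 7.23 ± 4.28 to 127 ± 29.2 CPM (log2 fold change 4.11) and was lower in Th1 than in Th17 (-3.96). *Serpinb6a* (1.98), the lysosomal membrane protein *Lamp2* (1.73) and *Cst7*, which encodes an inhibitor of the *Ctsc* product (1.72), also rose in Th17. *Igf2r*, the receptor that sorts lysosomal enzymes, fell in Th17 with a log2 fold change of -1.78. *Ctsh* was lower in Th1 than in Th17 (log2 fold change -6.67) and than in Naive (-4.34), with 0.196 ± 0.0804 CPM in Th1.

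Of 20 genes of granule transport and exocytosis, 0 were called higher and 1 lower in Th17 versus Naive, 1 and 1 in Th1 versus Naive, and 3 and 1 in Th1 versus Th17. Of all genes tested, 5.43%, 7.45% and 5.53% were called, so that the first 2 counts are near that background. The medians were 0.25, 0.31 and 0.27, against -0.02, -0.02 and -0.03 over all genes. *Rab27a*, the GTPase that docks granules, had 127 ± 0.511 CPM in Naive, 183 ± 28.5 in Th17 and 145 ± 22 in Th1. *Unc13d*, which primes them for fusion, had 215 ± 39.9, 128 ± 33.3 and 257 ± 4.99 CPM, and neither gene was called. Of the called genes, *Sytl2* and *Sytl3* encode effectors of Rab27. *Sytl3* rose in Th1 from 5.74 ± 0.783 CPM in Naive to 95.4 ± 8.09 CPM (log2 fold change 4.06) and was higher than in Th17 (2.76). *Sytl2* fell in Th17 versus Naive (-2.52) and was higher in Th1 than in Th17 (3.74). *Lyst*, the regulator of lysosome size that is mutated in Chediak-Higashi syndrome, was higher in Th1 than in Th17 (1.62). *Rab44* fell in Th1 versus Naive (-2.76) and was lower than in Th17 (-3.27).

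Of 12 transcription factors linked to the cytotoxic programme, 11 were tested, and *Zfp683* was not analysed here. In Th17 versus Naive 3 were called higher and 3 lower (median 0.23), in Th1 versus Naive 6 and 1 (median 1.33), and in Th1 versus Th17 3 and 0 (median 1.08). Over all genes the shares called were 5.43%, 7.45% and 5.53% and the medians -0.02, -0.02 and -0.03. *Tbx21*, the Th1 factor, was called in all 3 comparisons, with 22.1 ± 1.75 CPM in Naive, a lower 3.65 ± 1.31 CPM in Th17 and a higher 148 ± 14.4 CPM in Th1. *Eomes*, its partner in killer cells, had 20.4 ± 4.16, 0.898 ± 0.310 and 12.1 ± 0.248 CPM. It fell in Th17 (log2 fold change -4.44), was higher in Th1 than in Th17 (3.70), and was not called in Th1 versus Naive (-0.75, adjusted p = 0.20). *Bhlhe40* rose in Th17 (3.74) and in Th1 (5.68), *Prdm1* rose in Th1 (2.25), and *Tox* fell in both (-4.14 and -3.75).

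Of 12 death ligands and companion effector genes, 3 were called higher and 2 lower in Th17 versus Naive, 3 and 2 in Th1 versus Naive, and 2 and 0 in Th1 versus Th17, against 5.43%, 7.45% and 5.53% of all genes. The medians were -0.02, 0.69 and 0.27, and those over all genes -0.02, -0.02 and -0.03. *Fasl*, the death ligand that kills without granules, had 7.54 ± 0.186 CPM in Naive, 1.74 ± 0.423 in Th17 and 32.1 ± 3.51 in Th1. It was called in all 3 comparisons, lower in Th17 and higher in Th1, like *Nkg7*. *Ifng*, the cytokine gene of Th1 cells, had 4.55 ± 0.00402, 56.7 ± 11.2 and 167 ± 14.2 CPM and was called higher in each comparison. *Fgl2* rose in both polarized cell types (2.94 in Th17 and 3.60 in Th1). *Klrg1*, a receptor of mature killer cells, fell in both (-3.55 and -2.91), and the chemokine gene *Ccl3* rose in Th17 (3.14).

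**Figure D4:**
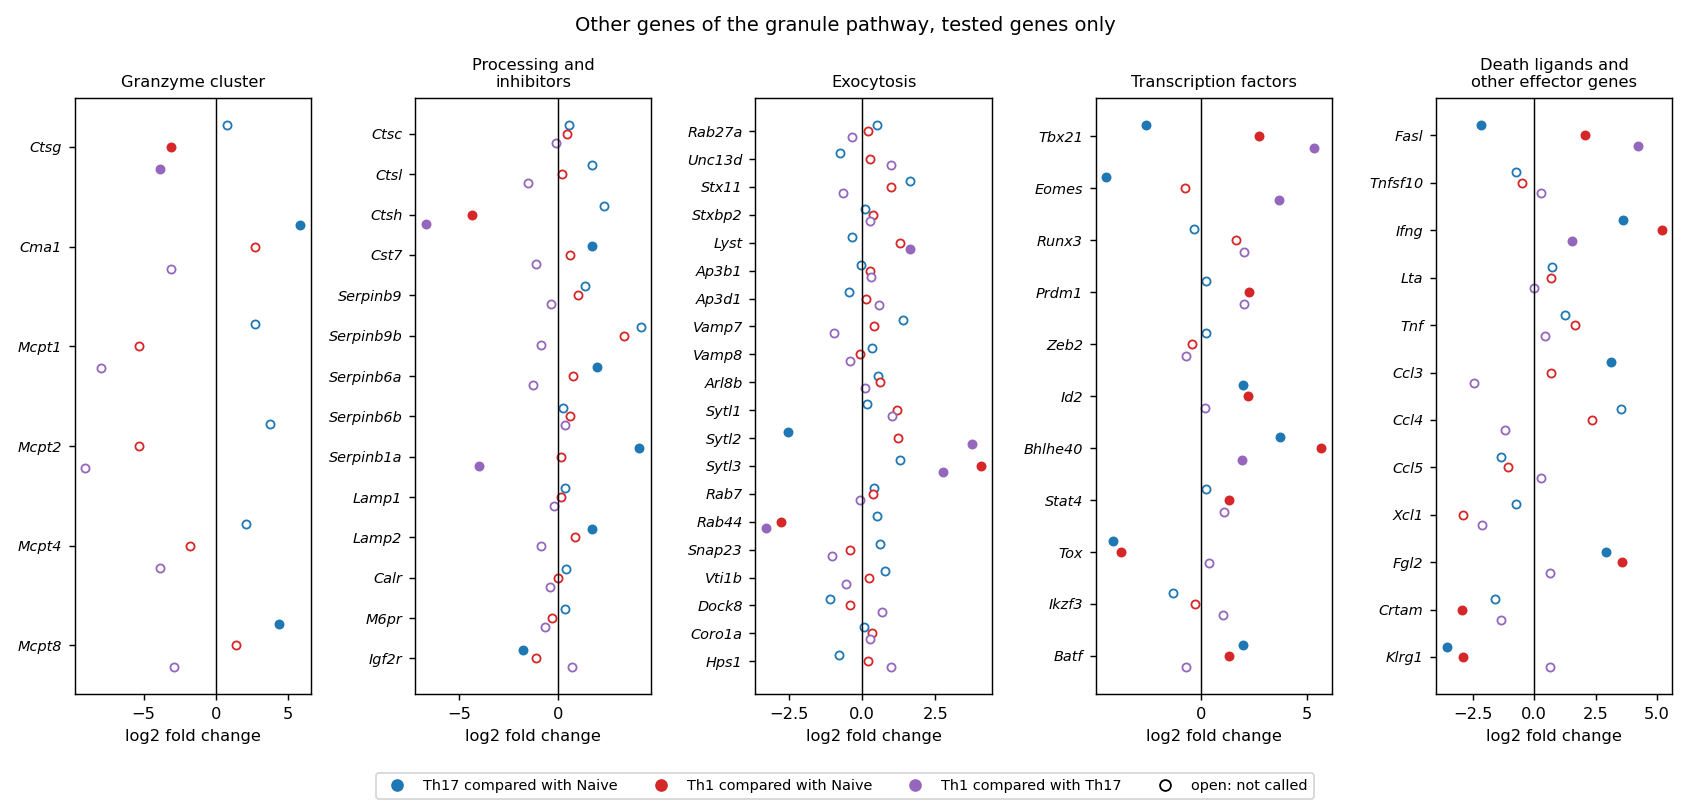
Log2 fold changes of the tested genes of 5 pathway lists in the 3 comparisons, with filled points for called differences and a separate axis for each list. *Sytl3*, *Bhlhe40*, *Ifng* and *Fgl2* have filled points above 3 for Th1 versus Naive, and the filled points of *Ctsg*, *Ctsh* and *Rab44* in Th1 lie below 0.

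The mast cell and neutrophil proteases that lie beside the granzymes on chromosome 14 were read with the granzyme cluster, a list of 11 genes of which 6 were tested. In Th17 versus Naive 2 were called higher and 0 lower (median log2 fold change 3.19), in Th1 versus Naive 0 and 1 (median -2.44), and in Th1 versus Th17 0 and 1 (median -3.86). The all-gene shares were 5.43%, 7.45% and 5.53%, with medians of -0.02, -0.02 and -0.03. *Mcpt8*, a basophil protease 176987 bp from *Gzmb*, had 7.59 and 1.19 CPM in Naive, 66.0 and 119 CPM in Th17, and 12.1 and 12.3 CPM in Th1, and rose in Th17 (4.34). *Ctsg*, a neutrophil protease, had 43.2 and 21.5 CPM in Naive, 51.1 and 59.3 CPM in Th17, and 4.49 and 3.03 CPM in Th1, and fell in Th1 (-3.09). *Cma1*, a mast cell chymase, had 0.470 and 0 CPM in Naive, 6.76 and 27.3 CPM in Th17, and 2.89 and 0.885 CPM in Th1, and was called higher in Th17 than in Naive. So *Gzmb* rose in Th1 while *Ctsg* fell there, and *Gzmb*, *Mcpt8* and *Cma1* were each called higher in Th17 than in Naive. Within Th17, *Mcpt8* and *Cma1* were higher in replicate 2 and *Gzmb* in replicate 1.

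Markers of other cell types were read because basophils, mast cells, neutrophils and NK cells also make members of this set. In bulk RNA, fewer cells of a type and less RNA per cell cannot be told apart. Of 12 NK cell markers, 9 to 10 were above 3 counts in the Naive and Th17 libraries and 6 to 8 in Th1. They summed to 275 and 314 CPM in Naive and to 304 and 302 CPM in Th17, and Th1 reached 1573 and 2239 CPM. In Th1, *Il2rb*, which activated T cells also express, made up 1506 and 2208 CPM of it, while *Ncr1* stood at 0.0155 and 0 CPM and *Klrb1c* at 0.170 and 0.126 CPM. In Naive, *Klrb1c* stood at 17.4 and 11.2 CPM, and *Klra4* and *Klra8* had 0 counts in every library. Other markers of this list did not follow *Klrb1c*. *Klrd1* stood at 10.5 and 10.9 CPM in Naive, at 23.0 and 58.3 CPM in Th17 and at 28.9 and 9.55 CPM in Th1. *Klrk1* was highest in Th1 replicate 1 with 18.9 CPM, and *Tyrobp* was highest in Th17 with 33.8 and 67.0 CPM. The part of NK cells in the levels of the granule genes was not tested. The 5 CD8 T cell markers summed to between 16.5 and 48.6 CPM, with 4 to 5 above 3 counts in each library.

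In Th17, where *Gzmb*, *Gzmc* and *Gzma* rose and *Nkg7* fell, other lists were also high. The 12 mast cell and basophil markers, 11 of them above 3 counts in each Th17 library, summed to 242 and 485 CPM in Th17, against 178 and 55.8 in Naive and 90.3 and 71.2 in Th1. *Tpsab1* was at 0 counts in both Th17 libraries. *Kit*, the largest part of both Naive sums, was lower in Th17, with 12.8 and 11.4 CPM against 99.8 and 29.6. *Gata2* overlapped between these cell types (Th17 14.0 and 18.7 CPM, Naive 32.6 and 14.2 CPM). The rest of this list was higher in both Th17 libraries than in either Naive library. The 14 neutrophil markers in the files, all of them above 3 counts in Th17, summed to 3190 and 3030 CPM there, against 419.6 and 244 in Naive and 41.8 and 63.1 in Th1. Most of the Th17 sums came from *S100a8* (1149 and 1142 CPM) and *S100a9* (1039 and 1060 CPM). *Mpo* was higher in Naive (251 and 159 CPM) than in Th17 (68.1 and 58.7 CPM). *Elane* stood at 57.3 and 29.6 CPM in Naive and at 52.5 and 46.9 in Th17, and *Prtn3* at 60.6 and 29.8 and at 64.7 and 60.5. The 9 macrophage and monocyte markers in the files summed to 293 and 881 CPM in Th17 and to at most 41.1 CPM in each other library. The 6 platelet and megakaryocyte markers summed to 275 and 484 CPM in Th17 and to at most 75.7 CPM elsewhere. The mast cell, macrophage and platelet sums were higher in Th17 replicate 2 than in replicate 1, as were *Srgn* and *Ctsw*. The CD8 T cell, CD4 T cell and erythroid sums were also higher there. *Gzma*, *Gzmb*, *Gzmc*, *Gzmk*, *Gzmm*, *Prf1* and *Nkg7* were lower in replicate 2. So were the neutrophil (3190 against 3030 CPM), NK cell (304 against 302 CPM) and B cell sums (15.8 against 11.8 CPM, replicate 1 first). The part of other cells in the granule genes of Th17 was not tested. The 5 B cell and plasma cell markers in the files summed to at most 15.8 CPM in each library. In Naive replicates 1 and 2, 4 of 8 erythroid markers were above 3 counts and summed to 573 and 103 CPM, against at most 2.15 CPM in each polarized library. *Gzma*, *Gzmb* and *Gzmc* were also more than 2 times as high in Naive replicate 1 as in replicate 2. Replicate 1 had the higher erythroid, mast cell, neutrophil, macrophage, B cell and platelet sums. Its NK cell and CD8 T cell sums were lower (275 against 314 and 20.2 against 24.4 CPM), but its median over the NK cell markers was higher (8.59 against 3.74 CPM). The part of other cells in these granzyme levels was not tested. The 7 markers of CD4 T cells in the files summed to between 2737 and 4107 CPM.

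**Figure D5:**
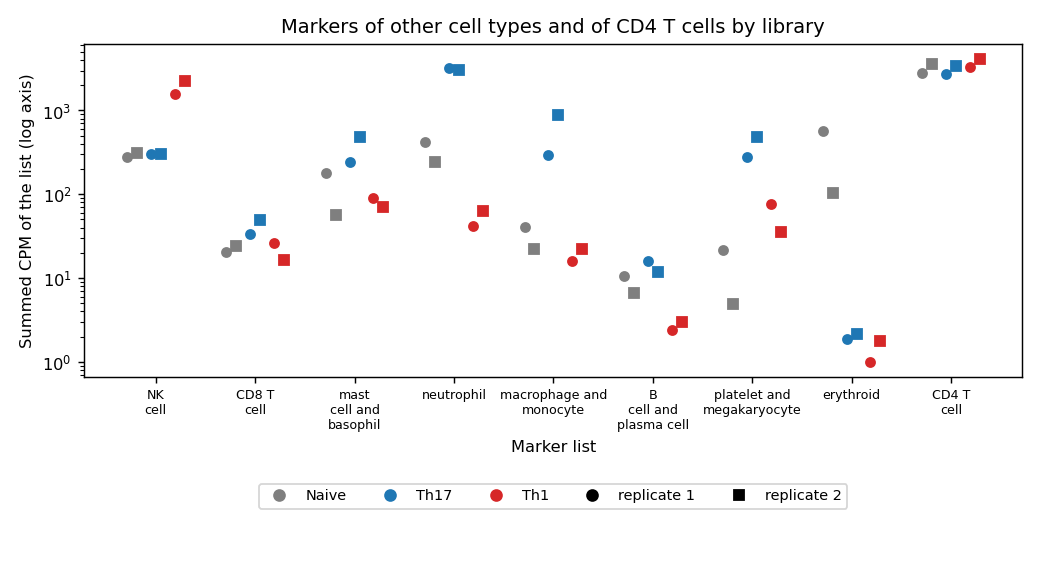
Summed CPM of each marker list in each library, on a log axis, with circles for replicate 1 and squares for replicate 2. The mast cell, neutrophil, macrophage and platelet sums are highest in Th17. The NK cell sum is highest in Th1, where *Il2rb* is most of it, and *Il2rb* is its largest part in each library. The CD4 T cell sums lie between 2737 and 4107 CPM in all 6 libraries.

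The genes most like 4 members across the 6 libraries were found by Pearson's r of log2 CPM among 9502 tested genes with at least 10 CPM in a cell type. For *Gzmb* they were *Eps8* (r = 0.999), *Gp49a* (0.995) and *Fbxo44* (0.994). For *Gzma* they were *Ffar2* (0.995), *Pigz* (0.994) and *Kif3a* (0.993), and for *Nkg7* they were *Tns1* (0.997), *Wars* (0.992) and *Tbx21* (0.991). For *Prf1*, whose Th1 replicates lay on either side of all other libraries, they were *Mfng* (0.969), *Slc25a23* (0.968) and *Ssfa2* (0.962). With 6 libraries in 3 groups such values describe these libraries only.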

How the data were processed

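The data were RNA-Seq libraries of mouse Naive, Th17 and Th1 cells, 6 in all with 2 per cell type. The submitters' processing notes and the methods name HISAT2 2.2.1 for alignment on mm10, removal of duplicates, and HTSeq 0.13.5 for counting. The gene annotation is not given in the sources used here. The deposited values are whole-number raw counts without normalization, 1 set per library, for 24223 gene symbols, of which 6377 had 0 counts in every library.

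Genes were filtered by filterByExpr with cell type as the group, which left 13607, and scaled by TMM in edgeR 4.0.16 (R 4.3.3), with factors from 0.862 to 1.09. Each pair of cell types was compared by the quasi-likelihood F-test in a joint model of the 6 libraries that had cell type as its sole factor. DESeq2 1.42.0, other scalings and filters, the replicate number as a block, thinning, other thresholds and leaving out each library were alternatives. The code was also run on simulated counts that had the same spread for every gene. These differ from the real replicates, so that run checks the code and not the calls given here. The members and gene lists were chosen with earlier results of these data known, so no p-value was adjusted over a list alone and no set test was made. All 9 members are named, and of each pathway list at most 5 called genes with the largest change, plus *Tbx21*, *Eomes*, *Ctsc*, *Serpinb9*, *Rab27a*, *Unc13d* and *Fasl*. Levels between genes use the exon length of coding transcripts in GENCODE vM21 (GRCm38, the assembly of mm10), where no exon of another gene overlapped those of a member. Log2 CPM used a prior count of 2. Depth describes counting error only, since sequenced reads are not independent molecules, and replicates differed beyond counting noise, with a chi-square per degree of freedom between 90.9 and 141. Other marker genes listed but not in the files were not analysed here.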

Additional observations from a re-analysis of the deposited data

Results flagged for a closer look

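For 3 of the 9 genes the change from Naive differed between Th1 and Th17 by the test of that difference, edgeR's comparison of Th1 with Th17. For *Nkg7* the difference was 4.04 on the log2 scale, from a fall in Th17 and a rise in Th1. For *Gzma* it was 2.49, with a rise in both, and for *Ctsw* it was 1.70, with a rise that was called only in Th1. For each of them the Th1 libraries lay above both Th17 libraries, and no overlap in either direction held for 66.6% of all genes tested between Th1 and Th17. Only the difference of *Nkg7* was called with each library left out.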

How the results depend on the processing

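The counts of members called were 4 for Th17 versus Naive, 5 for Th1 versus Naive and 3 for Th1 versus Th17. With library size alone they were 3 in the comparison of Th1 with Naive and 1 in that of Th1 with Th17. That scaling moved the median log2 fold change of all genes to -0.26 and -0.24 in these comparisons, and to 202 higher against 352 lower calls in the latter, where TMM gave 367 and 385. With each library left out, the counts ranged from 2 to 4, from 3 to 5 and from 1 to 4. DESeq2 gave 5, 7 and 4, but it called 12.6%, 14.1% and 13.1% of all genes, where edgeR called 5.43%, 7.45% and 5.53%. Without the filter on low counts 12.1%, 12.7% and 12.5% of all genes were called, and at an adjusted p-value under 0.05 15.2%, 15.9% and 15.5%.

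The pathway list calls were 19, 16 and 12. They were 32, 26 and 25 without the filter on low counts, 10 in Th1 versus Naive after thinning to the smallest library, 21 in Th1 versus Th17 by DESeq2, and 30 and 22 in Th17 versus Naive and in Th1 versus Th17 at an adjusted p-value under 0.05. With each library left out they ranged from 8 to 21, from 10 to 12 and from 7 to 18. The causes were not tested.

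The direction reversed only for differences that were not called. *Gzmk* in Th17 versus Naive ranged from -1.07 to 0.13, without Th17 replicate 1 and without Th17 replicate 2. *Gzmm* in Th1 versus Th17 was -0.12 with library size alone, -0.58 after thinning, and between -1.18 and 0.59 without Th1 replicate 1 and without Th1 replicate 2. *Prf1* ranged from -1.21 to 0.33 in Th1 versus Naive, and from -0.67 to 0.84 versus Th17, without Th1 replicate 2 and without Th1 replicate 1. Same-numbered replicates deviated together with r of -0.23, 0.17 and 0.077 between pairs of cell types. These values show no strong common shift by number, but cannot exclude that same-numbered libraries share animals or a run. Fitted with the replicate number as a block, edgeR called 7.61%, 10.3% and 7.65% of all genes, against 5.43%, 7.45% and 5.53% without it. With the replicate block, edgeR called 4, 5 and 3 members and 20, 18 and 16 pathway genes, DESeq2 5, 7 and 4 members and 24, 22 and 18 pathway genes, and *Gzmm* in Th1 versus Th17 was -0.0075 and -0.087. *Gzmm* rests on 4 to 64 counts per library, and the part of depth in its lack of calls was not tested.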

Other observations

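The nearest tested protein-coding genes on either side of the members were also read. *Adamts14*, which encodes a secreted protease 24395 bp from *Prf1*, fell in Th1 versus Naive (log2 fold change -5.34) and was lower than in Th17 (-5.22), from 9.04 CPM in Naive and 8.23 CPM in Th17 to 0.195 CPM in Th1, while *Prf1* was not called. *Cdc20b*, 2630 bp from *Gzma*, was called higher in Th1 than in Naive, as *Gzma* was, with means of 1.23 and 0.00734 CPM. The Naive mean lies below the limit of detection of 3 counts, which stands at 0.0440 and 0.149 CPM in the Naive libraries. *Cdc34*, 622 bp from *Gzmm*, and *Vps26a*, 7028 bp from *Srgn*, were not called in any comparison.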
